A study of Mus musculus with 6 samples.

Results

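Metallothioneins and the zinc response of liver endothelial cells (ECs) were described through 5 genes, Mt1, Mt2, Mtf1, Slc30a1 and Slc39a14, chosen by name out of 24421 gene rows in the count table. All 5 were found, and all 5 were among the 14612 genes that passed the filter on low counts. RNA came from CD31+CD45- ECs sorted from the livers of wild-type C57BL/6J female mice, with 3 young samples (10 weeks old, replicates 1 to 3) and 3 aged samples (127, 131 and 136 weeks old, named here by their age). No mouse carried a transgene or was treated, and the labels do not say whether a sample came from 1 mouse or from several, so that the p-values measure the spread between these samples. The methods give the aged mice as 30 months old. In a bulk library, fewer cells of a type and less RNA per cell cannot be told apart.

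Metallothioneins are small cysteine-rich proteins that bind zinc, copper and cadmium. The zinc-finger factor MTF-1 senses free zinc and binds metal response elements near the start of the metallothionein genes and of Slc30a1, which encodes ZnT1, the exporter that moves zinc out of the cell across the plasma membrane. ZIP14, the product of Slc39a14, works the other way and brings zinc, manganese and non-transferrin-bound iron into the cytosol. Metallothionein genes also respond to glucocorticoids and to several kinds of cell stress, and Slc39a14 is known in the liver as a gene induced by interleukin-6.

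Mt1 (ENSMUSG00000031765.6; chr8:96702989-96704225 of mm9) and Mt2 (ENSMUSG00000031762.6; chr8:96696518-96697467) are neighbours on the plus strand of chromosome 8, with 5521 bases and 0 other annotated genes between them. Each has at most 3 exons. Mtf1 (ENSMUSG00000028890.6; chr4:124479348-124527044, plus strand), Slc30a1 (ENSMUSG00000037434.7; chr1:193730646-193737126, plus strand) and Slc39a14 (ENSMUSG00000022094.8; chr14:70703274-70751232, minus strand) lie on other chromosomes. Although Mt1 and Mt2 are close relatives, 0 of the 752 and 482 distinct 75-base stretches of their coding transcripts also occurred in a transcript of another protein-coding gene, and the same was true of the other 3 genes. Of the exonic bases of Mtf1, 316 of 8300 also lie in an exon of an overlapping gene, and of those of Slc30a1, 468 of 5244 lie in an exon of the antisense gene 1700034H15Rik. The strand setting of the counting is not given in the sources used here, so reads from these stretches cannot be assigned.

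Promoter sequences were matched by symbol to RefSeq's table, which held 4 of the 5 genes, and each of them occurred once on its chromosome in mm9. The sequences of Mt1 (chr8:96702739-96703038), Mt2 (chr8:96696268-96696567) and Slc30a1 (chr1:193730410-193730709), all on the plus strand, are shown because these are the genes that MTF-1 is known to act on. Each is 300 bases long and spans the RefSeq start, and capitals mark the core of the metal response element, searched as TGCGCNC and TGCACNC on both strands.
Mt1: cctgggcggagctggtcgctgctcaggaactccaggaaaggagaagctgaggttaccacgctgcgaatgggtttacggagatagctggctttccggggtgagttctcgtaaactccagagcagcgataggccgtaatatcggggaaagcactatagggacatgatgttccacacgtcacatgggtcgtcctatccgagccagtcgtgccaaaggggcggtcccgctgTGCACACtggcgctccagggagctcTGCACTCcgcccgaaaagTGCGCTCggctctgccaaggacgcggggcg
Mt2: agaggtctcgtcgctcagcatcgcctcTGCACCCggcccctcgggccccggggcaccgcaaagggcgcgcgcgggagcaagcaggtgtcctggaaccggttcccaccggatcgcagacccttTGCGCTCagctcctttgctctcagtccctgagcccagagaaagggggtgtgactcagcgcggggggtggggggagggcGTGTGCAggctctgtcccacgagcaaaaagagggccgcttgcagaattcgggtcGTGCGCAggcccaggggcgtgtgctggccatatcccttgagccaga
Slc30a1: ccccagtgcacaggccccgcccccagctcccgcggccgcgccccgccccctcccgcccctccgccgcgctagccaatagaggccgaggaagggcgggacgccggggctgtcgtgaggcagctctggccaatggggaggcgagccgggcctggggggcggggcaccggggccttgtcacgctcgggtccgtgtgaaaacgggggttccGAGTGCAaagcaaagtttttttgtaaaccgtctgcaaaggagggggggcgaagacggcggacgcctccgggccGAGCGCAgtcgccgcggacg
Mt1 held 3 matches, the first bases of which lay at -23, 3 and 21 from the start (whose first base is 1), all in the direction of the gene. Mt2 held 4, at -223, -128, -50 and 5, of which the last 2 were on the opposite strand. Slc30a1 held 2, at -43 and 31, both on the opposite strand. The Mtf1 promoter held 0. Among all 32851 promoters of this length, 7.11% held at least 2 such matches, 1.97% at least 3 and 0.517% at least 4. The core of the antioxidant response element, TGACNNNGC, occurred once in each of the Mt2 and Slc30a1 promoters and in 12.4% of all promoters. Only these 300 bases around the RefSeq start of each gene were searched, so elements outside them were not counted. Mt1 has 2 annotated transcripts, and no start other than the RefSeq start was searched. The matches are thus not a full list of the elements of a gene. A match of letters was not tested for binding.

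Total counts ran from 23001556 to 31651817 per library, where 3 counts correspond to at most 0.130 CPM, a unit of counts relative to the library total. The sorted identity was checked with marker lists. The 6 pan-endothelial markers summed to between 8148 and 8575 CPM in young and between 5800 and 7559 CPM in aged libraries, and the 5 sinusoidal markers to between 10960 and 12080 CPM in young and between 4575 and 7570 CPM in aged libraries. Of the pan-endothelial markers 2 were higher and 4 lower in the aged, where 51.1% of all genes were higher. Pecam1 had a mean of 1443 CPM in young and 1458 CPM in aged libraries, and Kdr of 3506 and 2236 CPM. Of the sinusoidal markers 1 was higher, Lyve1, and 4 were lower. Markers of leukocytes (4 genes) summed to 10.7 to 19.1 CPM in the young libraries and to 39.0, 13.6 and 147 CPM in the 127-, 131- and 136-week libraries. Kupffer cell markers (6 genes) summed to 23.8 to 39.3 CPM in the young libraries and to 65.9, 6.73 and 90.3 CPM in the aged libraries in the order of age. T and NK cell markers (5 genes) summed to at most 0.677 CPM in the young and to 4.47, 0.233 and 18.2 CPM in the aged libraries, and B cell markers (4 genes) to at most 1.23 CPM in the young and to 1.51, 0.739 and 8.49 CPM in the aged libraries. The 136-week library was highest for all 4 of these lists and the 127-week library above the young range for all 4, while the 131-week library was within or below it. Hepatocyte markers (8 genes) summed to between 114 and 180 CPM in young and between 82.0 and 99.5 CPM in aged libraries, stellate cell markers (5 genes) to between 35.9 and 217 CPM in young and between 73.2 and 142 CPM in aged libraries, and cholangiocyte markers (4 genes) to between 7.29 and 24.0 CPM in young and between 20.2 and 30.8 CPM in aged libraries. In none of these lists was a marker at 0 in all 6 libraries. Lars2 and Rn45s, symbols that collect ribosomal RNA reads, took 1.29% of the counts of young replicate 3 and 0.960% of those of the 127-week library but 4.68% to 5.53% in the other 4. These are called here the low-Rn45s pair and the high-Rn45s libraries, and differences within each set are given beside the pooled ones.

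None of the 5 genes differed between young and aged ECs beyond the spread between samples. In edgeR's quasi-likelihood test, 0 of 5 passed an adjusted p of 0.05 with a log2 fold change beyond 1, where 0% of all 14612 genes did, and 0 of 5 had an unadjusted p below 0.05, where 12.6% of all genes did (6.62% with a log2 fold change beyond 1 as well). DESeq2's Wald test also called 0 of 5, against 3.24% of all genes. The young and aged values overlapped for all 5 genes, while 17.9% of all genes had no overlap. Of the 5, 2 had a log2 fold change above 0, as did 51.1% of all genes, and the median over the 5 was -0.19, beside 0.0098 over all genes tested. For Mt1, Mt2 and Slc39a14 the libraries of an age were spread widely, while Mtf1 varied little.

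**Figure D1:**
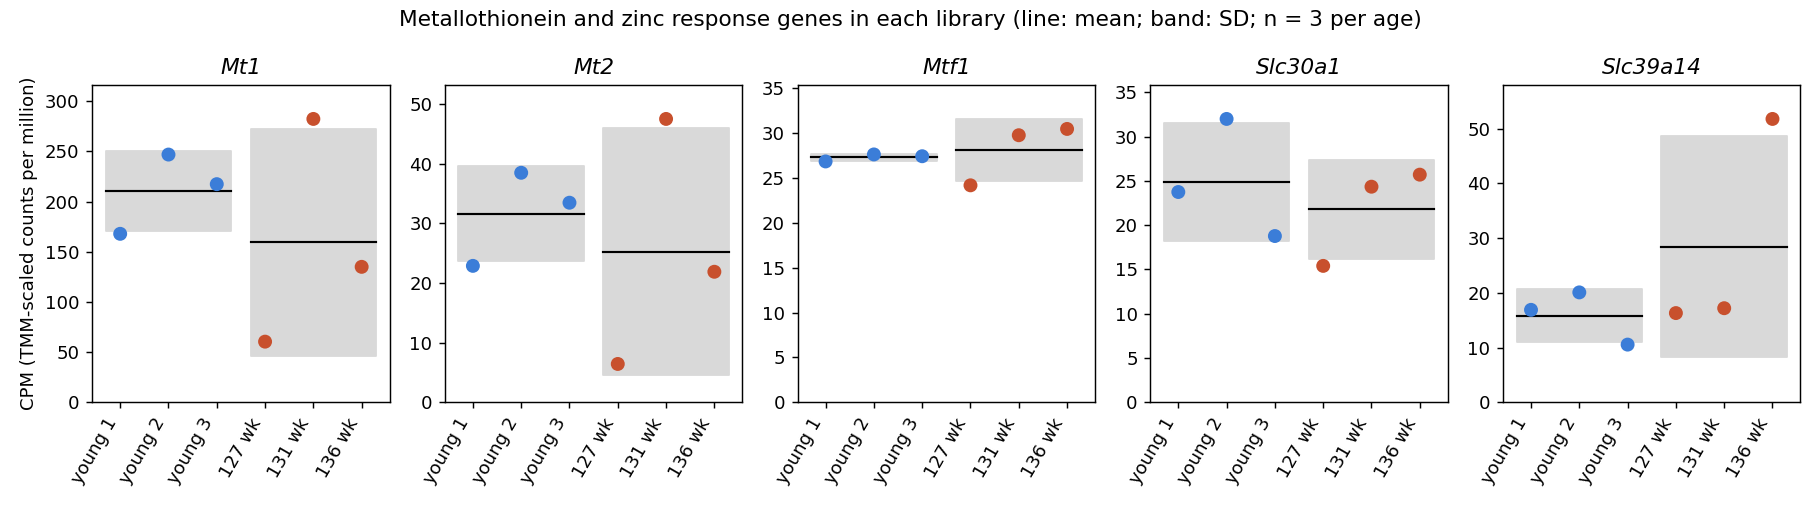
CPM of the 5 genes in the 3 young (blue) and 3 aged (red) libraries, with lines at the mean and bands of 1 SD for each age. The 127-week library was lowest for Mt1 (60.4 CPM) and Mt2 (6.43 CPM), the 131-week library highest for both, and the 136-week library stood alone for Slc39a14 (51.8 CPM).

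Scaled for length, Mt1 and Mt2 had by far the highest levels among the 5 genes. In the deposited FPKM values (fragments scaled for exon length and depth, so that levels of different genes can be compared), Mt1 was at 611 ± 117 in the young and 456 ± 323 in the aged samples and Mt2 at 87.0 ± 22.3 and 69.1 ± 56.7 (mean ± SD of 3 samples). Mt1 ranked between 76th and 448th of 24346 genes by FPKM, and Mt2 between 727th and 4393rd. The zinc transporters and the factor followed at a much lower level, with mean FPKM over the 6 libraries of 5.11 for Slc30a1, 4.48 for Slc39a14 and 3.54 for Mtf1, and the ranges of these 3 genes overlapped. By FPKM, the order Mt1, Mt2 and then the other 3 held in every library. By CPM, which is not scaled for length, Mt2 was below the other 3 in the 127-week library. It had 6.43 CPM there, against 24.2 for Mtf1, 16.3 for Slc39a14 and 15.4 for Slc30a1. The other metallothionein genes were close to absent. Mt3, known from brain, had a count of 0 in 5 libraries and of 1 in the 136-week library, and Mt4, known from squamous epithelia, had a count of 0 in all 6, which is below the 3 counts that a count of 0 allows.

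Mt1 had CPM values of 168, 247 and 217 in young replicates 1, 2 and 3, from 4512, 5473 and 6891 counts. In the 127-, 131- and 136-week libraries it had 60.4, 282 and 135 CPM, from 1758, 7261 and 3326 counts. The highest and the lowest library of all 6 were thus both aged, and the 3 young libraries lay between them. The log2 fold change was -0.40 (standard error, SE, 0.49, 95% interval -1.56 to 0.75), with an adjusted p of 0.799 in edgeR's quasi-likelihood test. A two-sided exact permutation test of the CPM gave p = 0.6, where 3 samples against 3 cannot give less than 0.1.

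Mt2 repeated this order at a lower level. It had CPM values of 22.9, 38.5 and 33.5 in the young replicates, and of 6.43, 47.5 and 21.9 in the 127-, 131- and 136-week libraries, the lowest from 187 counts. The log2 fold change was -0.32 (SE 0.61, 95% interval -1.76 to 1.11), with an adjusted p of 0.888 in edgeR's quasi-likelihood test and p = 0.6 in the exact permutation test. Relative to the young mean, the 127-week library stood at 0.287 for Mt1 and 0.203 for Mt2, the 131-week library at 1.34 and 1.503, and the 136-week library at 0.641 and 0.692. Within an age, the libraries of both genes were spread widely: on the log2(CPM + 1) scale their SD within ages exceeded that of 95.8% (Mt1) and 98.1% (Mt2) of all genes tested.

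The age difference of both metallothionein genes rested on single aged libraries. Without the 127-week library the log2 fold change was -0.011 for Mt1 and 0.14 for Mt2, and without the 131-week library it was -1.11 and -1.16, with adjusted p of 0.204 and 0.339 in edgeR's quasi-likelihood test. Within the 4 high-Rn45s libraries the aged mean differed from the young mean by -0.060 for Mt1 and 0.12 for Mt2, and in the low-Rn45s pair the 127-week library differed from young replicate 3 by -1.83 and -2.21, all on the log2(CPM + 1) scale. These differences within the library sets had no test, since the second set holds 1 library per age.

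Mt1 and Mt2 moved together across the 6 libraries. Their log2(CPM + 1) values had a Pearson's r of 0.994 (exact permutation p = 0.00139, adjusted p = 0.0139 over the 10 pairs of members) and placed the libraries in the same order (Spearman's rho = 1, exact permutation p = 0.00278, adjusted p = 0.0278). Without the 127- and 131-week libraries, the pair farthest from the median of Mt1, r was 0.963 over 4 libraries. The high- and low-Rn45s sets hold 4 and 2 libraries, too few for a value of their own. Of the other 9 pairs, 0 passed an adjusted p of 0.05 by either coefficient (smallest adjusted p 0.167, for the rho of Slc30a1 and Slc39a14). Mt1 with Mtf1 gave r = 0.656 (exact permutation p = 0.165, adjusted p = 0.276) and rho = 0.429 (exact permutation p = 0.419, adjusted p = 0.524), and without the same pair of libraries r was -0.656. The value of r for this pair thus rested on those libraries. The ratio of Mt1 to Mt2 counts lay between 5.94 and 7.34 in 5 libraries and was 9.40 in the 127-week library, where both genes were lowest.

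Among 8912 other genes with a mean CPM of at least 10, Mt2 had the profile closest to that of Mt1, with a root mean square difference of 0.172 between the centred log2(CPM + 1) values over the 6 libraries. The next were Pdk4, a kinase that inhibits pyruvate dehydrogenase, at 0.246 and Plxdc1, an endothelial membrane protein, at 0.256. For Mt2, the closest after Mt1 were Hspa1b at 0.336 and Pdk4 at 0.365. Hspa1b encodes an inducible HSP70 chaperone, and had 1084, 1105 and 1008 CPM in the young libraries and 344, 1912 and 1181 CPM in the 127-, 131- and 136-week libraries. Hspa1a, its near-identical copy, so that the split of reads between the pair is uncertain, stood at 0.294, 1.72 and 1.10 of its young mean in the 127-, 131- and 136-week libraries. The 127-week library was thus lowest and the 131-week library highest for both heat shock genes, as for both metallothionein genes. A list of 9 immediate early and heat shock genes that respond to tissue dissociation includes Hspa1a and Hspa1b. Its summed CPM was 15050 to 18610 in the young libraries and 19120, 19840 and 24660 in the 127-, 131- and 136-week libraries, another order. Fos, Jun and Egr1, which made up most of this sum, were lowest in the 131-week library among the aged. The sum thus mixes genes of unlike order and does not show that of Hspa1a and Hspa1b. The part of these 9 genes in the levels of Mt1 and Mt2 was not tested. Hepatocytes are known to make much metallothionein, and the hepatocyte markers summed to 99.5, 89.1 and 82.0 CPM in the 127-, 131- and 136-week libraries and to between 114 and 180 CPM in the young. Their part in the levels of Mt1 and Mt2 was not tested either.

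**Figure D2:**
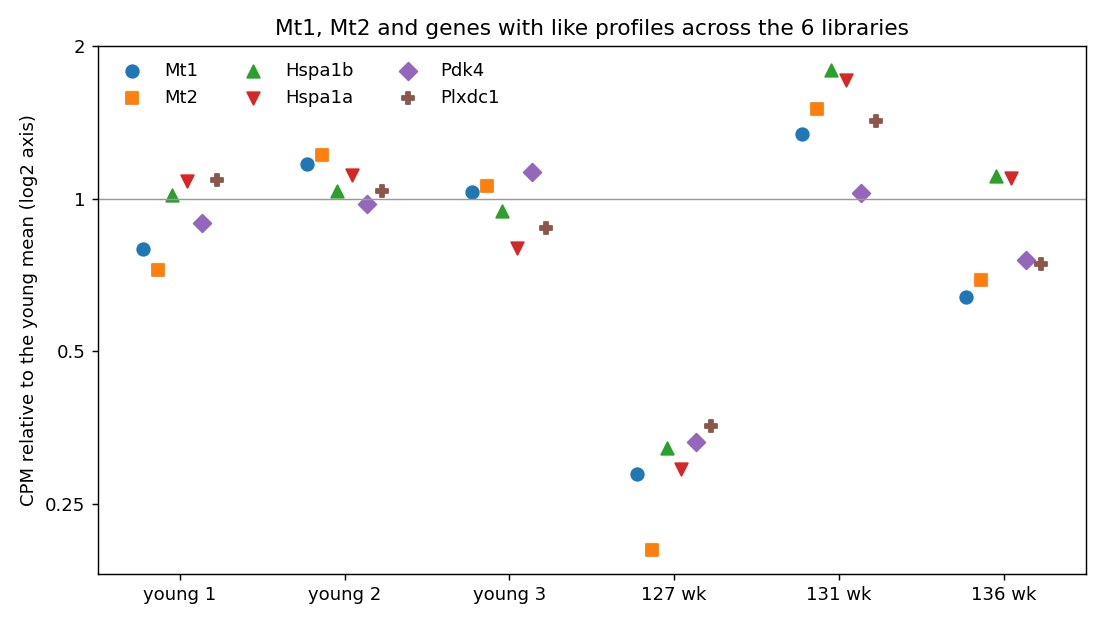
CPM of Mt1, Mt2, Hspa1b, Hspa1a, Pdk4 and Plxdc1 in each library relative to the mean of the 3 young libraries, on a log2 axis. All 6 genes were lowest in the 127-week library, where Mt1 stood at 0.287 and Mt2 at 0.203 of the young mean.

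Mtf1, the zinc sensor, was the steadiest of the 5 genes. It had CPM values of 26.8, 27.6 and 27.4 in the young replicates, and of 24.2, 29.8 and 30.5 in the 127-, 131- and 136-week libraries, with the young values inside the range of the aged ones. The log2 fold change was 0.044 (SE 0.16, 95% interval -0.32 to 0.41), with an adjusted p of 0.948 in edgeR's quasi-likelihood test and p = 0.8 in the exact permutation test. Only 10.7% of all genes tested had an SD within ages as small or smaller. The highest Mtf1 value exceeded the lowest by 1.26 times, against 4.67 times for Mt1 and 7.39 times for Mt2. The genes of closest profile were Dazap2 at 0.041, Poldip3 at 0.041 and Tapt1 at 0.045, values of little weight since Mtf1 itself varied by only 0.104 around its mean on the same scale.

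Slc30a1, the zinc exporter of the plasma membrane, had CPM values of 23.7, 31.99 and 18.8 in the young replicates and of 15.4, 24.3 and 25.7 in the 127-, 131- and 136-week libraries. The 2 lowest values were those of young replicate 3 and the 127-week library, the low-Rn45s pair. The mean of this pair differed from that of the other 4 libraries by -0.60 on the log2(CPM + 1) scale. The same difference was -0.79 for Mt1, -0.999 for Mt2, -0.15 for Mtf1 and -0.80 for Slc39a14. The log2 fold change of Slc30a1 with age was -0.19 (SE 0.27, 95% interval -0.83 to 0.46), with an adjusted p of 0.845 in edgeR's quasi-likelihood test and p = 0.6 in the exact permutation test. Within the high- and low-Rn45s sets the aged samples differed from the young by -0.14 and -0.27. Lancl2, Ykt6 and Cnot6l had the profiles closest to it, at 0.080, 0.083 and 0.090.

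Slc39a14, the zinc, manganese and iron importer, was set apart by 1 library. It had CPM values of 16.9, 20.1 and 10.5 in the young replicates, from 454, 445 and 334 counts. The 127- and 131-week libraries, at 16.3 and 17.2 CPM from 474 and 442 counts, lay within the young range, and the 136-week library reached 51.8 CPM from 1275 counts, 3.27 times the young mean. The log2 fold change of 0.84 (SE 0.49, 95% interval -0.30 to 1.99) did not pass, with an adjusted p of 0.536 in edgeR's quasi-likelihood test and p = 0.5 in the exact permutation test. Without the 136-week library the log2 fold change was 0.083 (adjusted p = 0.980 in the same test). The low-Rn45s pair, young replicate 3 and the 127-week library, held the lowest values, at 10.5 and 16.3 CPM. Within the high- and low-Rn45s sets the aged samples lay 0.67 and 0.58 above the young on the log2(CPM + 1) scale. In the high-Rn45s set this rested on the 136-week library, since the 131-week value of 17.2 CPM lay between the young values of 16.9 and 20.1. The low-Rn45s pair holds 1 library per age, and its 127-week value lay within the young range.

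The genes whose profile was most like that of Slc39a14 were Gng2, a G protein gamma subunit, at 0.120, S1pr3, a sphingosine-1-phosphate receptor, at 0.124 and Pi16 at 0.127. All 3 were highest in the 136-week library, where they had 69.5, 46.04 and 30.3 CPM against at most 32.04, 18.1 and 9.64 CPM elsewhere. This is also the library with the highest sums of leukocyte, Kupffer, T and NK and B cell markers, and their part in the Slc39a14 value was not tested. Socs3, a feedback inhibitor of STAT3 signalling, had 868 to 1025 CPM in the young libraries. It had 1256, 1795 and 2682 CPM in the 127-, 131- and 136-week libraries, highest in the same library as Slc39a14 and above the young range in all 3. The list of STAT3 response genes read below was mixed. Among the aged libraries, Pim1, Bcl3 and Il6ra were also highest in the 136-week library, and Stat3, Il4ra and Il6st in the 127-week library. The part of STAT3 signalling in the Slc39a14 value was not tested.

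**Figure D3:**
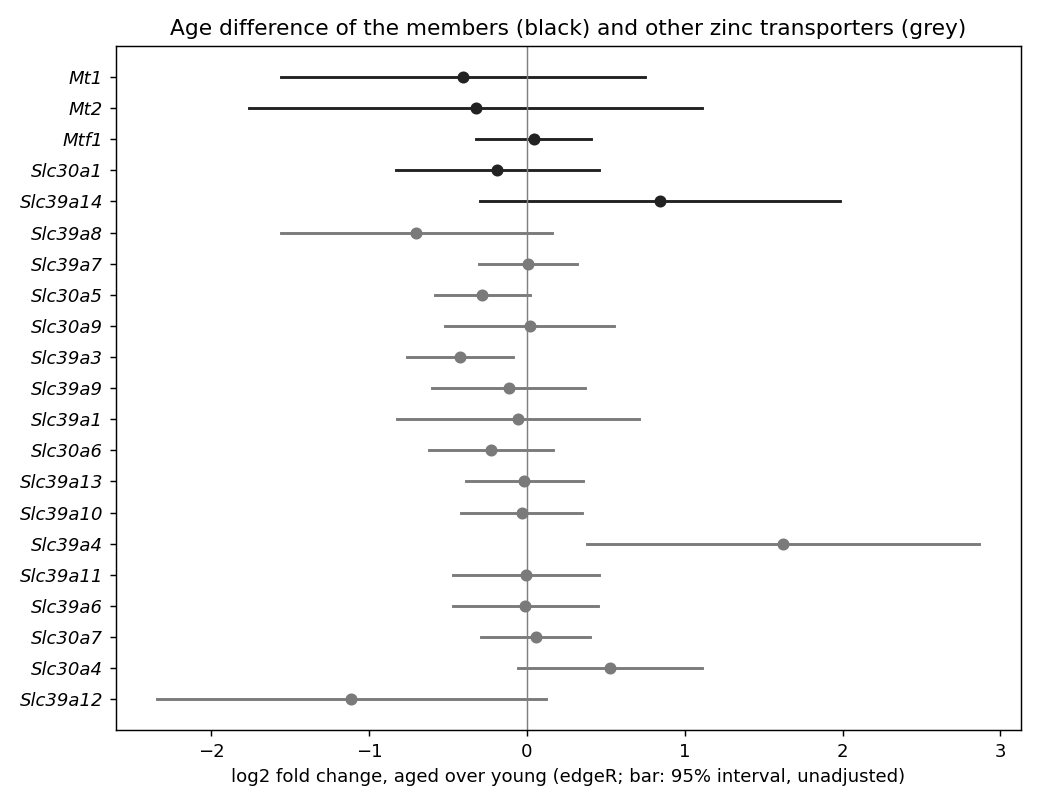
Log2 fold changes of the 5 genes (black) and of the other tested ZnT and ZIP genes (grey) in edgeR, with unadjusted 95% intervals. The intervals of all 5 members include 0, and those of Slc39a3 and Slc39a4 do not, at adjusted p of 0.325 and 0.315.

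The other zinc transporters were read as the families to which Slc30a1 and Slc39a14 belong. Most of the 9 other ZnT genes move zinc out of the cytosol into vesicles, organelles or the medium. Of the 9, 5 passed the filter, 3 higher and 2 lower in the aged libraries (median log2 fold change 0.017), and edgeR called 0. Over all genes tested, 51.1% were higher. Those that did not pass were Slc30a2, Slc30a3, Slc30a8 and Slc30a10, all with at most 1 count in any library. Slc30a5, a transporter of the early secretory pathway and the ZnT gene with the highest FPKM, had 79.1, 87.1 and 92.1 CPM in young and 71.8, 73.2 and 67.5 CPM in the 127-, 131- and 136-week libraries. The ages did not overlap, and the log2 fold change was -0.28 (SE 0.13, adjusted p = 0.423 in edgeR's quasi-likelihood test). Slc30a4 had 33.6, 34.8 and 19.7 CPM in young and 39.4, 37.2 and 50.5 CPM in the aged libraries in the order of age, without overlap, and a log2 fold change of 0.53 (SE 0.25, adjusted p = 0.440 in the same test).

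Of the 13 other ZIP genes, which bring zinc into the cytosol, 11 passed the filter. In the aged libraries 2 were higher and 9 lower (median log2 fold change -0.034), and edgeR called 0 (2 had an unadjusted p below 0.05). Over all genes tested, 51.1% were higher and 12.6% had such a p. Slc39a8, which encodes ZIP8, the closest relative of ZIP14 and like it a carrier of zinc and manganese, had the highest mean FPKM of both families over the 6 libraries, at 89.1, with 111 in the young and 67.6 in the aged samples. In the aged samples alone Slc39a7, an importer of the secretory pathway, was higher, at 84.3 (84.2 in the young). The CPM values of Slc39a8 were 391, 410 and 293 in the young and 226, 334 and 113 in the 127-, 131- and 136-week libraries. The 136-week library, highest for Slc39a14, was lowest for Slc39a8. The log2 fold change was -0.70 (SE 0.37, adjusted p = 0.492 in edgeR's quasi-likelihood test). Slc39a4, known as the zinc importer of the intestinal epithelium, had 12.7, 12.2 and 5.17 CPM in young and 33.8, 12.1 and 46.5 CPM in the 127-, 131- and 136-week libraries, so that the 131-week library lay within the young range. Its log2 fold change of 1.62 (SE 0.53) had an adjusted p of 0.315 in edgeR's quasi-likelihood test and of 0.0437 in DESeq2's Wald test. The leukocyte, Kupffer, T and NK and B cell marker sums given above were likewise highest in the 136-week, next in the 127-week and lowest in the 131-week library among the aged, and their part in the Slc39a4 values was not tested. Slc39a3 had 61.1, 76.1 and 75.5 CPM in young and 52.4, 56.4 and 49.5 CPM in the aged libraries in the order of age, without overlap, a log2 fold change of -0.43 (SE 0.14, adjusted p = 0.325 in edgeR's quasi-likelihood test). Slc39a2 and Slc39a5 did not pass the filter.

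**Figure D4:**
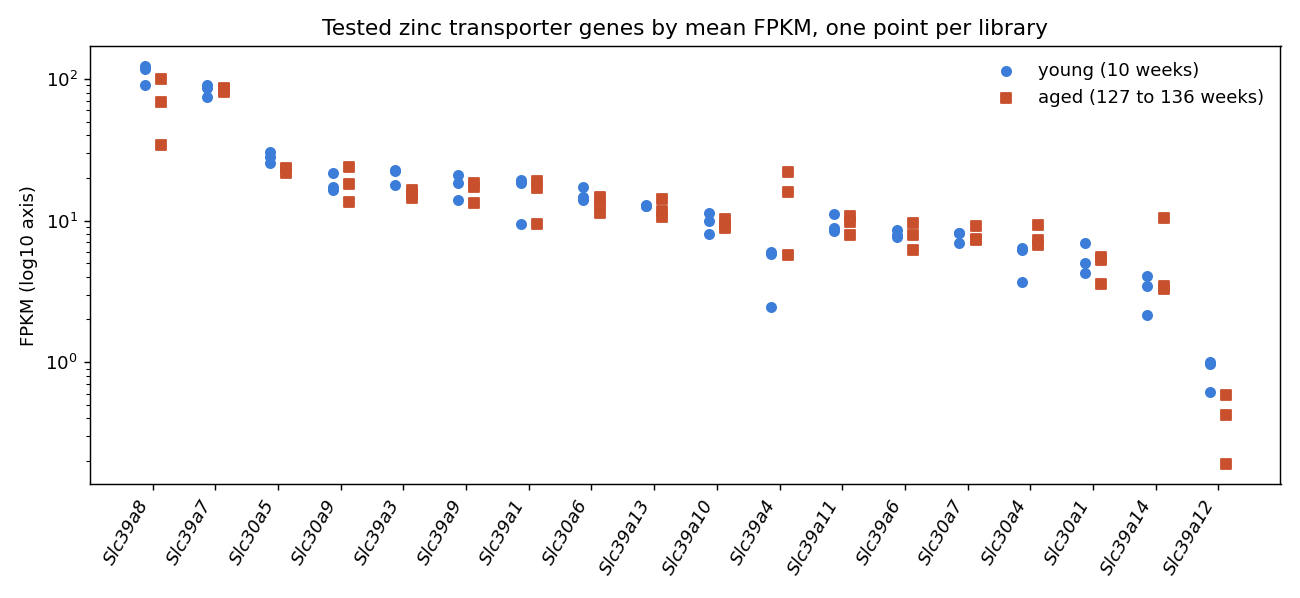
FPKM of each tested ZnT (Slc30a) and ZIP (Slc39a) gene in the 3 young (blue) and 3 aged (red) libraries on a log10 axis, ordered by the mean over all 6. Slc39a8 is at the top with 89.1, and Slc30a1 (5.11) and Slc39a14 (4.48) are near the bottom, followed only by Slc39a12 (0.631).

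Metallothioneins also bind copper. Of 7 copper genes 6 passed the filter. In the aged libraries 1 was higher and 5 lower (median log2 fold change -0.17), and edgeR called 0 (1 had an unadjusted p below 0.05). Among all genes tested, 51.1% were higher and 12.6% had such a p. Slc31a2, an intracellular copper transporter, had 175, 185 and 265 CPM in young and 146, 133 and 97.9 CPM in the aged libraries in the order of age, without overlap, with a log2 fold change of -0.73 (SE 0.23, adjusted p = 0.296 in edgeR's quasi-likelihood test). Atp7a, the copper-exporting pump, had a log2 fold change of 0.030 (SE 0.21, adjusted p = 0.976 in the same test). Atox1, the chaperone that hands copper to that pump, had the highest FPKM of the list, at 378 ± 106 in the young and 355 ± 100.4 in the aged samples (mean ± SD of 3).

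**Figure D5:**
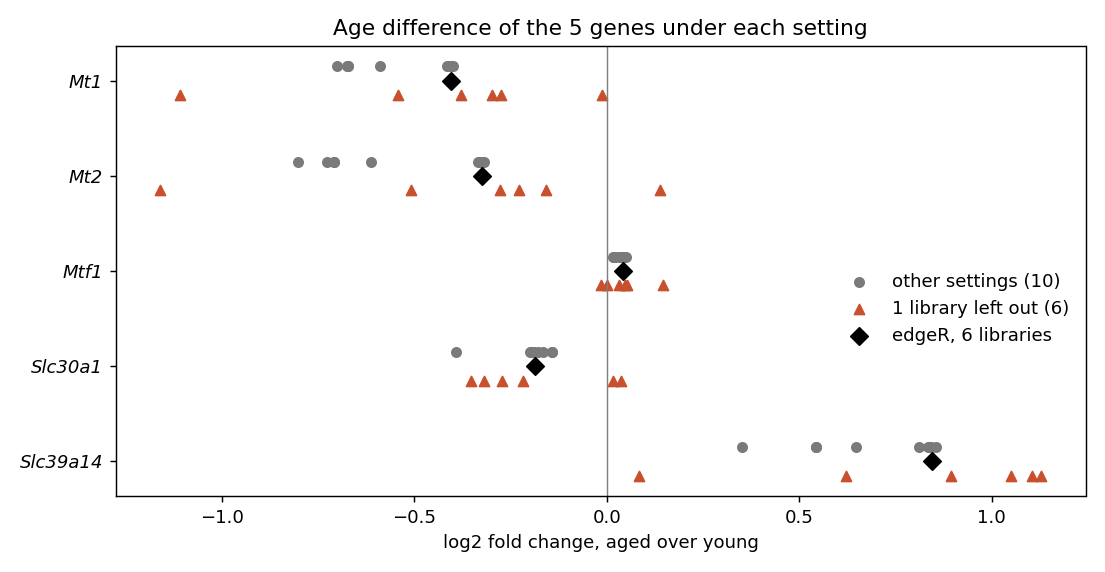
Log2 fold changes of the 5 genes in edgeR with all 6 libraries (diamonds), with 1 library left out in turn (triangles) and under 10 other settings (circles). Leaving out single libraries moved Mt1 between -1.11 and -0.011, Mt2 between -1.16 and 0.14 and Slc39a14 between 0.083 and 1.13.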

How the data were processed

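RNA-seq libraries of 3 young and 3 aged liver EC samples were analysed. Per the labels, the authors prepared them with the TruSeq Sample Prep v2 kit and read 75-base single ends. The authors called bases with CASAVA 1.8.2, mapped reads to mm9 with TopHat2 2.1.0, and deposited raw counts per gene symbol and, from Cuffnorm 2.2.1, FPKM values scaled between samples. The counting program, its annotation and its strand setting are not given in the sources used here. The filter required 0.5 CPM in any 1 sample. Counts were scaled by TMM, the scale of all CPM given except in the filter and the limit of 3 counts, which use library totals. The scaled counts were tested by quasi-likelihood in edgeR 4.0.16 (R 4.3.3), with p-values adjusted by Benjamini-Hochberg over the 14612 genes kept. Standard errors are the log2 fold change over the square root of F, and intervals are at 95%. Alternatives used DESeq2 1.42.0, limma 3.58.1 (voom, or log2 FPKM with a pseudocount of 1 or 0.1), other filters and scalings, a term for the library set and leaving out each sample. DESeq2 size factors served as another scaling. For single genes, two-sided exact permutation tests were run in scipy 1.17.1. Reads carry no molecular identifiers, so a limit of 3 counts covers counting error only. Gene positions were read from GENCODE on mm9. The members and lists were chosen with earlier results of these data known. Named genes are the members, the 3 of closest profile to each, and in each list the gene of smallest p in each direction and the gene of highest FPKM. Slc39a7, Slc39a12, Hspa1a, Bcl3, Nqo1, Fkbp5, Klf9, Per1 and Zbtb16 were named after their values were seen. The same holds for Pim1, Il6ra, Stat3, Il4ra, Fos, Jun, Egr1, Pecam1, Kdr and Lyve1. Scripts were tested on simulated data. Other assays of the study were not used here.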

Additional observations from a re-analysis of the deposited data

How the results depend on the processing

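Over 16 alternatives, Mt1 and Slc39a14 kept their direction in all 16, Mt2 and Mtf1 in 15 and Slc30a1 in 14, and no alternative called any of the 5 genes. The lowest adjusted p over the alternatives was 0.204 for Mt1, 0.339 for Mt2, 0.743 for Mtf1, 0.505 for Slc30a1 and 0.340 for Slc39a14. Leaving out 1 library at a time, log2 fold changes ran from -1.11 to -0.011 for Mt1, from -1.16 to 0.14 for Mt2, from -0.016 to 0.15 for Mtf1, from -0.35 to 0.038 for Slc30a1 and from 0.083 to 1.13 for Slc39a14. The sign turned for Mt2 (0.14) and Slc30a1 (0.016) without the 127-week library, for Slc30a1 (0.038) without young replicate 2 and for Mtf1 (-0.016) without the 136-week library; an arm of 2 samples was left in each such fit. Over all genes edgeR called 0 higher and 0 lower in aged ECs, while 967 passed the same fold at an unadjusted p below 0.05. DESeq2 called 395 and 79, limma-voom with sample quality weights 13 and 2, edgeR without a filter 3 and 1, limma on log2(FPKM + 0.1) 1 and 1, and edgeR with the library set as a term 1 and 1. With each library left out in turn edgeR called 0 to 1 genes higher. Of the 43 tested genes of the zinc, copper and inducer lists, DESeq2 called 5 (11.6%, beside 3.24% of all genes), namely Slc39a4, Tsc22d3, Socs3, Bcl3 and Nqo1, and edgeR 0. The cause of these differences between tools was not tested. No paired analysis was made, since the labels give no pairing of young with aged samples. With 3 samples a group, the intervals of Mt1, Mt2 and Slc39a14 do not exclude a change of more than 1 log2 unit.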

Other observations

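Metallothionein and ZIP14 genes are known to answer to signals other than zinc, and 3 lists of genes that mark such signals were read beside them. Of 7 glucocorticoid response genes, 1 was higher and 6 were lower in the aged libraries (median log2 fold change -0.55). In edgeR 1 had an unadjusted p below 0.05 and 0 were called. Among all genes tested, 51.1% were higher and 12.6% had such a p. Tsc22d3, the glucocorticoid-induced leucine zipper, had 418, 607 and 510 CPM in young and 198, 333 and 225 CPM in the 127-, 131- and 136-week libraries, without overlap between the ages. Its log2 fold change was -1.02 (SE 0.25, adjusted p = 0.235 in edgeR's quasi-likelihood test and 0.00697 in DESeq2's Wald test). Among the aged libraries, 4 of the 7 genes (Tsc22d3, Sgk1, Fkbp5 and Klf9) were lowest in the 127-week and highest in the 131-week library, the order of Mt1 and Mt2, as were 15.4% of all genes tested. The differences were small for Fkbp5 (77.2, 80.6 and 78.6 CPM in the order of age), and the other 3 genes (Per1, Dusp1 and Zbtb16) had another order. This order was looked at after the values of Mt1 and Mt2 were seen, and had no test.

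Of 7 STAT3 response genes, 5 were higher and 2 lower (median log2 fold change 0.82), where 51.1% of all genes were higher. In edgeR 2 had an unadjusted p below 0.05, where 12.6% of all genes did, and 0 were called. Socs3 had a log2 fold change of 1.02 (SE 0.29, adjusted p = 0.256 in edgeR's quasi-likelihood test and 0.0208 in DESeq2's Wald test), and Il6st, the shared receptor subunit of the interleukin-6 family, one of -0.47 (SE 0.26, adjusted p = 0.510 in edgeR's quasi-likelihood test). Of 7 oxidative stress response genes, all 7 were higher (median log2 fold change 0.61), where 51.1% of all genes were. In edgeR 3 had an unadjusted p below 0.05, where 12.6% of all genes did, and 0 were called. Txnrd1, thioredoxin reductase, had 83.9, 78.0 and 69.4 CPM in young and 116, 154 and 141 CPM in the aged libraries in the order of age, without overlap. Its log2 fold change was 0.83 (SE 0.16, adjusted p = 0.194 in edgeR's quasi-likelihood test and 0.00167 in DESeq2's Wald test), below the fold that a call required. DESeq2 called 1 gene of this list, Nqo1, at a log2 fold change of 1.22 (SE 0.31, adjusted p = 0.243 in edgeR's quasi-likelihood test and 0.012 in DESeq2's Wald test). Hmox1, heme oxygenase, had the highest FPKM of that list and a log2 fold change of 0.61 (SE 0.31, adjusted p = 0.471 in edgeR's quasi-likelihood test). Mt1 and Mt2, often counted with this response, had log2 fold changes of -0.40 (SE 0.49) and -0.32 (SE 0.61), both smaller than their SE. A link between these 2 genes and the list was not tested.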
